A study of Mus musculus with 93 samples.

Results

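The liver transcriptome of DBA/2J mice was compared with that of C57BL/6J mice on the control diet (CD). All mice labelled with strain DBA/2J or C57BL/6J and diet CD were taken, which gave 6 DBA/2J and 8 C57BL/6J livers of the 93 livers in the series. Every gene with enough reads was tested, 19110 of the 53465 genes in the count table. Both groups were males of inbred strains, and the labels name no transgene or engineered allele. They were housed at thermoneutrality (30°C) from 6 weeks of age, ate CD (10% of energy from fat, 17% from protein and 73% from carbohydrate) from 7 weeks of age for 17 weeks, and were killed at 24 weeks after a 4-h fast. The series also holds both strains on a western-style diet (WD; 40% fat, 17% protein and 43% carbohydrate), 7 DBA/2J and 8 C57BL/6J mice, and these served as a further strain comparison that shared no mice with the CD one. The strains did not share a cohort: on CD the C57BL/6J mice belonged to cohort 1 (3 mice) and cohort 2 (5 mice), and the DBA/2J mice to cohort 4 (3 mice) and cohort 5 (3 mice). A direct comparison therefore cannot tell strain and cohort apart. A fit with cohort as an additive term, which links the cohorts only through other strains of the series, is given where it changed the call of a gene described.

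Mice of an inbred strain carry identical copies of nearly every gene and so share their inherited variants. The hepatocyte, the main cell of the liver, makes cholesterol, fatty acids, bile acids and most plasma proteins, clears drugs with cytochrome P450 (Cyp) and conjugating enzymes, and in male mice secretes major urinary proteins (Mup) under pulsed growth hormone. DBA/2J and C57BL/6J are the parents of the BXD family of recombinant mice and differ at the H2 locus (the mouse major histocompatibility complex, MHC), where C57BL/6J has the b and DBA/2J the d haplotype.

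Reads assigned to genes ran from 45280569 to 46032728 per mouse in DBA/2J and from 48631886 to 49648938 in C57BL/6J. All reads were aligned to the C57BL/6J genome, and 6.45% ± 0.62 of them were left unmapped in DBA/2J against 2.23% ± 0.33 in C57BL/6J (SD, n = 6 and 8; exact permutation test, two-sided, p = 0.000666, adjusted p = 0.00133 over 4 read classes, the smallest p this design allows). Reads mapped to several places made up 10.03% ± 0.09 in DBA/2J and 9.14% ± 0.61 in C57BL/6J (SD, n = 6 and 8; same test, adjusted p = 0.00133). The part of unmapped or multimapped reads in the level of any one gene was not tested. A principal component analysis of the 14 livers put the strains apart on the first component (49.7% of the variance), whereas on the second (16.3%) C57BL/6J replicate 2 stood apart, with a score of 103.9 against -38.7 to 15.3 in the 13 others. That liver had summed Mup transcripts of 262 CPM (read counts scaled to a common library size) against 6245 to 15075 in the other C57BL/6J mice, and summed disease-associated macrophage transcripts of 1170 CPM against 102 to 365. DBA/2J replicate 2 had summed pancreatic acinar transcripts of 1021 CPM, against 33.2 to 50.0 in the other DBA/2J mice and 4.55 to 7.76 in C57BL/6J. Calls of the genes described that changed when both mice were left out are given with and without them. That fit kept C57BL/6J replicate 6, which lay next to replicate 2 of its strain in the Mup sum (6245 CPM) and the macrophage sum (365 CPM).

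**Figure D1:**
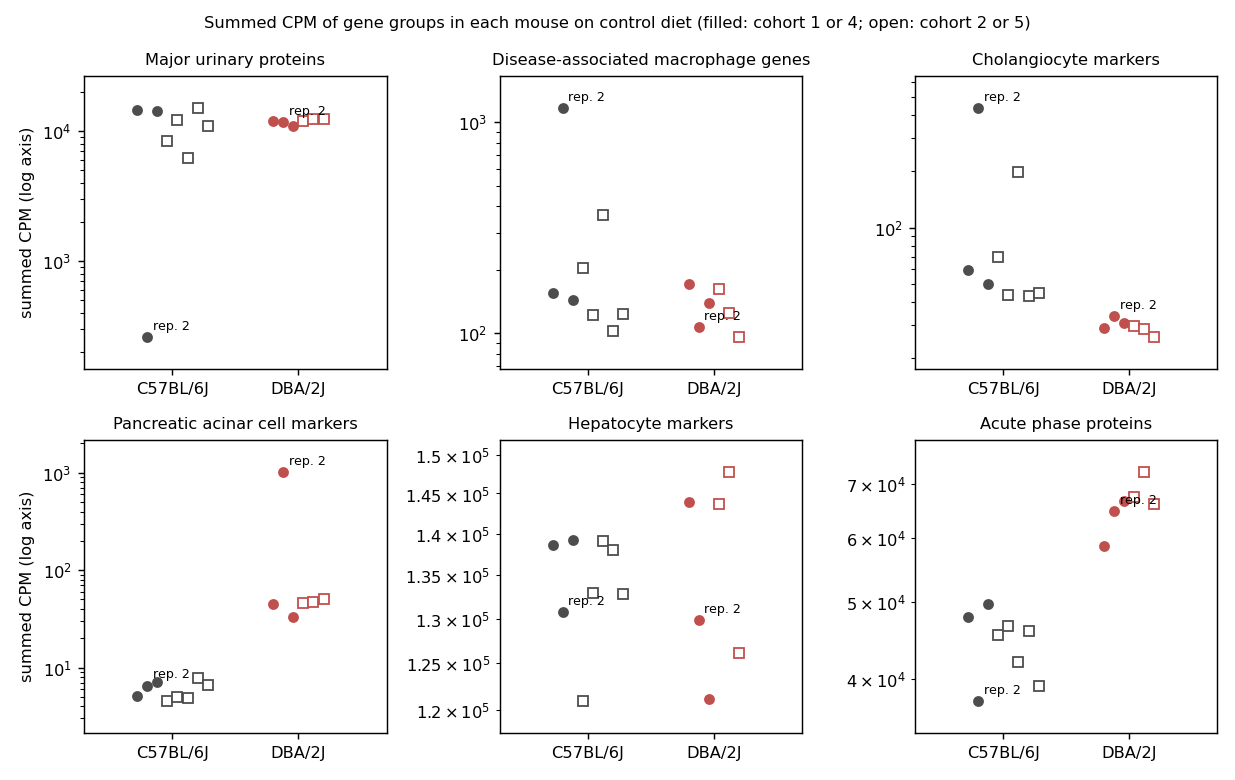
Summed CPM (log axis) of 6 gene groups in each mouse on CD, with C57BL/6J and DBA/2J on the horizontal axis, 1 point per mouse, filled for cohort 1 or 4 and open for cohort 2 or 5, and replicate 2 of either strain marked. C57BL/6J replicate 2 lies below the others for Mup (262 CPM) and above them for macrophage genes (1170 CPM), and DBA/2J replicate 2 lies above all others for acinar genes (1021 CPM).

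Of the 19110 genes tested, 7584 were differentially expressed genes (DEGs; limma-voom, Benjamini-Hochberg adjusted p below 0.05), which is 39.7%. In DBA/2J 3892 were higher (20.4% of all genes) and 3692 lower (19.3%). Most differences were small: the median absolute log2 fold change was 0.28 over all genes and 0.64 over DEGs. A difference of at least 2-fold was found for 2592 DEGs (13.6%), 1219 higher (6.38%) and 1373 lower (7.18%), and one of at least 8-fold for 496, of which 301 were higher. The CPM of the strains did not overlap for 2337 genes (12.2%). With cohort as a term 5000 genes were called (26.2%), and 4680 of them were DEGs of the direct comparison in the same direction (61.7% of its DEGs and 93.6% of the calls with the term), with 0 in the opposite direction. The 2 cohorts of C57BL/6J differed from each other in 756 genes (3.96%) and those of DBA/2J in 152 (0.795%). These counts rest on 3 against 5 and 3 against 3 mice, fewer than the strain comparison, so their sizes cannot be set directly against its count. Differences in a bulk liver can stem from fewer cells of a type or from less RNA per cell, and these cannot be told apart.

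**Figure D2:**
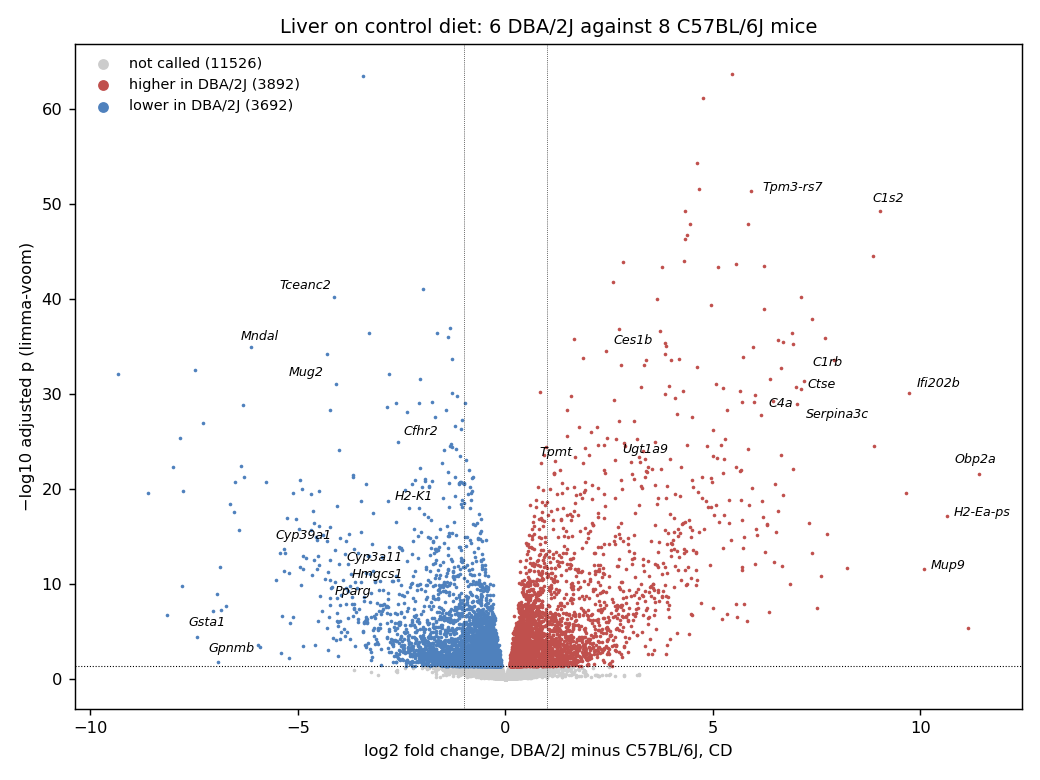
Log2 fold change (DBA/2J minus C57BL/6J on CD, horizontal) against -log10 adjusted p (vertical) for the 19110 genes tested, with 3892 higher and 3692 lower DEGs coloured and vertical dotted lines at a 2-fold difference. The named genes are examples described in the text, and Obp2a, H2-Ea-ps and Mup9 lie farthest to the right among them.

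Genes with known alleles in these strains were looked at first, as a check of the labels. H2-Ea-ps, the MHC class II alpha chain gene that b haplotype mice fail to express, was at 15.2 to 26.1 CPM, median 22.6, in DBA/2J, and only 3 reads in all fell on it in the 8 C57BL/6J mice, a DBA/2J to C57BL/6J ratio of 3012 (95% counting interval 1030.0 to 14608). Ifi202b, an interferon-inducible gene of the AIM2-like family that is silent in C57BL/6J, was at 11.7 to 17.9 CPM, median 14.1, in DBA/2J and 0 to 0.0730 CPM, median 0 in C57BL/6J (log2 fold change 9.74, SE 0.49, adjusted p = 8.1e-31). No C57BL/6J mouse reached 0.1 CPM of either gene. Glo1, which encodes the methylglyoxal-clearing glyoxalase and lies in a duplicated segment in DBA/2J, was at 646 to 867 CPM, median 679.8, against 144 to 378 CPM, median 301 (log2 fold change 1.39, SE 0.11, adjusted p = 1.1e-18). Nnt, the mitochondrial transhydrogenase that carries a deletion in C57BL/6J, was at 105 to 131 CPM, median 118, against 58.0 to 80.9 CPM, median 66.7 (log2 fold change 0.82, SE 0.070, adjusted p = 1.7e-17). The groups did not overlap for either gene. Hc, complement component C5, which DBA/2J lacks in plasma, was at 266 to 393 CPM, median 359.6, against 530.0 to 812 CPM, median 727 (log2 fold change -1.02, SE 0.11, adjusted p = 3.0e-13). Gpnmb, a glycoprotein with a stop codon in DBA/2J, was at 0 to 0.0441 CPM, median 0.0220, against 0.591 to 178 CPM, median 1.23 (log2 fold change -6.93, SE 2.48, adjusted p = 0.020; without both mice that stood apart, -6.08 and adjusted p = 0.044), and C57BL/6J replicate 2 held the highest level. In the 4 pairs of 1 cohort per strain Gpnmb was not called (-8.23 to -6.09, adjusted p = 0.10 to 0.14). Klrd1, the natural killer receptor CD94 that DBA/2J lost, was at 0 to 0.112 CPM, median 0.0549, against 0.309 to 2.49 CPM, median 0.730 (log2 fold change -4.23, SE 0.62, adjusted p = 2.0e-08). Apcs, serum amyloid P, was at 262 to 499 CPM, median 379, against 66.7 to 209 CPM, median 80.2 (log2 fold change 2.06, SE 0.33, adjusted p = 2.0e-07). Hc, Gpnmb, Klrd1 and Apcs did not overlap between the strains. Ahr, the aryl hydrocarbon receptor, whose low-affinity allele is carried by DBA/2J, was at 12.2 to 21.2 CPM, median 17.6, against 19.9 to 43.0 CPM, median 27.7 (log2 fold change -0.80, SE 0.16, adjusted p = 2.5e-05), and its ranges overlapped.

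The largest fold differences included several Mup genes, which are described with their family, and a number of genes that were close to absent in either strain. Obp2a (chr2:25700043-25703326, GRCm38), an odorant-binding lipocalin, was at 95.3 to 281 CPM, median 137, in DBA/2J and 0.0168 to 0.216 CPM, median 0.0204 in C57BL/6J (log2 fold change 11.42, SE 0.79, adjusted p = 2.7e-22). Serpina3c and Ctse were below 1 CPM in every C57BL/6J mouse. Serpina3c, a protease inhibitor, was at 53.0 to 86.8 CPM, median 59.9, against 0.274 to 0.722 CPM, median 0.483 (log2 fold change 7.03, SE 0.37, adjusted p = 1.2e-29). Ctse, the aspartic protease cathepsin E, was at 48.6 to 68.1 CPM, median 59.7, against 0.309 to 0.693 CPM, median 0.404 (log2 fold change 7.01, SE 0.35, adjusted p = 1.8e-31). Tpm3-rs7, a copy related to tropomyosin 3, was at 33.7 to 41.6 CPM, median 37.4, against 0.471 to 0.693 CPM, median 0.630 (log2 fold change 5.93, SE 0.15, adjusted p = 4.5e-52). No ranges overlapped among these genes, and each was also called on WD. Among genes lower in DBA/2J, Mndal, another AIM2-like gene that overlaps Ifi203, was at 0.0883 to 0.381 CPM, median 0.254, against 13.6 to 20.2 CPM, median 18.6 (log2 fold change -6.12, SE 0.26, adjusted p = 1.1e-35). Hdc, which makes histamine from histidine, was at 0.419 to 0.951 CPM, median 0.727, against 8.03 to 24.6 CPM, median 15.9 (log2 fold change -4.48, SE 0.40, adjusted p = 8.4e-17). Mug2, a murinoglobulin that traps proteases in plasma, was at 29.2 to 90.8 CPM, median 68.4, against 749.6 to 1279 CPM, median 951 (log2 fold change -4.08, SE 0.20, adjusted p = 8.5e-32), whereas its relative Mug1 was higher in DBA/2J (log2 fold change 1.47, adjusted p = 5.6e-14). These 3 genes also did not overlap between the strains. Tceanc2 (log2 fold change -4.14), Trim30d (-3.67), Ildr2 (-3.65) and Ccnd1, the cell cycle regulator cyclin D1 (-3.47), were lower in every DBA/2J than in every C57BL/6J mouse. Cyp2a4 was at 0.438 to 3.01 CPM, median 1.84, against 4.60 to 419 CPM, median 12.2 (log2 fold change -4.04, SE 1.18, adjusted p = 0.0038), and C57BL/6J replicate 2 held the highest level (419 CPM), the other 7 lying between 4.60 and 282.

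**Figure D3:**
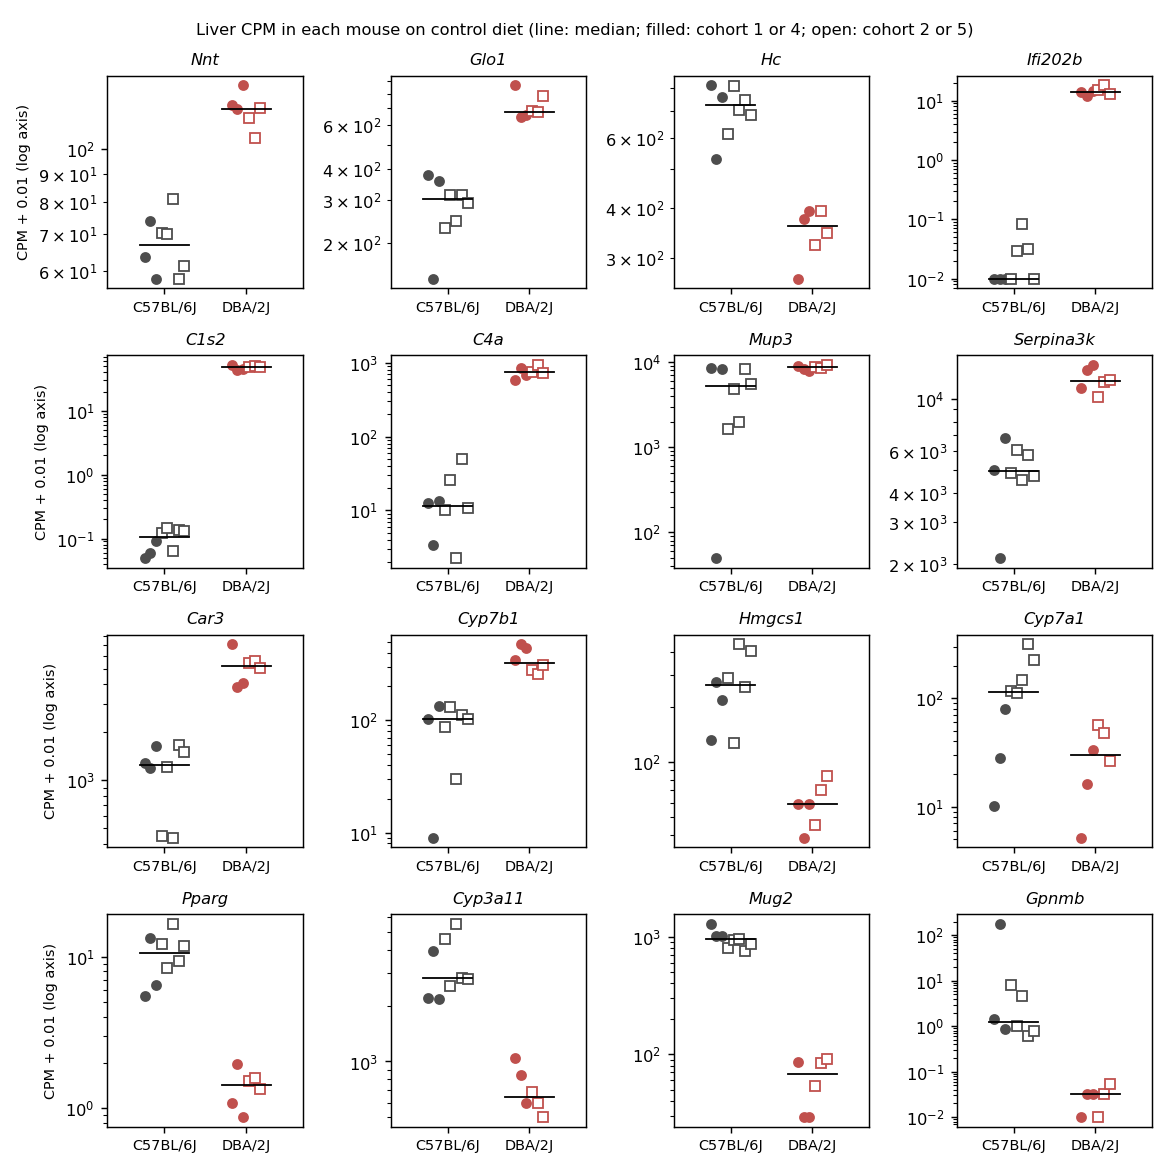
CPM + 0.01 (log axis) in each of the 14 mice on CD for 16 of the genes described, C57BL/6J beside DBA/2J, 1 point per mouse (filled for cohort 1 or 4, open for cohort 2 or 5) with a line at the group median. The strains overlap for Mup3 and Cyp7a1 and lie apart for the other genes shown, and the C57BL/6J point far from the others for Mup3 and Gpnmb is replicate 2.

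By change in CPM rather than fold, the genes were abundant plasma proteins and enzymes. Serpina3k, a plasma protease inhibitor that overlaps Serpina3m, was at 10176 to 13863 CPM, median 11866, in DBA/2J and 2119 to 6814 CPM, median 4936 in C57BL/6J (log2 fold change 1.33, SE 0.19, adjusted p = 1.2e-08). Car3, a carbonic anhydrase of male liver and fat, was at 3865 to 7099 CPM, median 5239, against 437 to 1676 CPM, median 1241 (log2 fold change 2.27, SE 0.25, adjusted p = 9.8e-13). The alpha-1-antitrypsin genes moved in both directions: Serpina1b was higher (log2 fold change 0.90, adjusted p = 8.0e-17), and Serpina1d (-1.37, adjusted p = 8.8e-16) and Serpina1e (-3.54, adjusted p = 9.9e-07) were lower. Summed over 10 tested Serpina3 genes, 8 of them higher and 1 lower, the level was 13736 ± 1380 CPM in DBA/2J and 5683 ± 1420 CPM in C57BL/6J (SD, n = 6 and 8). Reads can be split among near-identical members of such families, so values of single Serpina, Mup, Cyp and Ces genes are uncertain. Alb, albumin, was not called on CD (log2 fold change -0.088, adjusted p = 0.49).

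Gene lists for liver pathways were described by counts of DEGs beside the background of 20.4% higher and 19.3% lower over all genes. The lists with the largest share of members higher were the acute phase proteins, the Mup and growth hormone axis list and complement, and the list with the largest share lower was cholesterol synthesis. With the cohort term the shares over all genes were 13.9% higher and 12.3% lower. Without both mice that stood apart, 3298 of the 19110 genes were higher and 3219 lower. By edgeR these counts were 3790 and 4072, and by DESeq2 3710 and 4289.

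**Figure D4:**
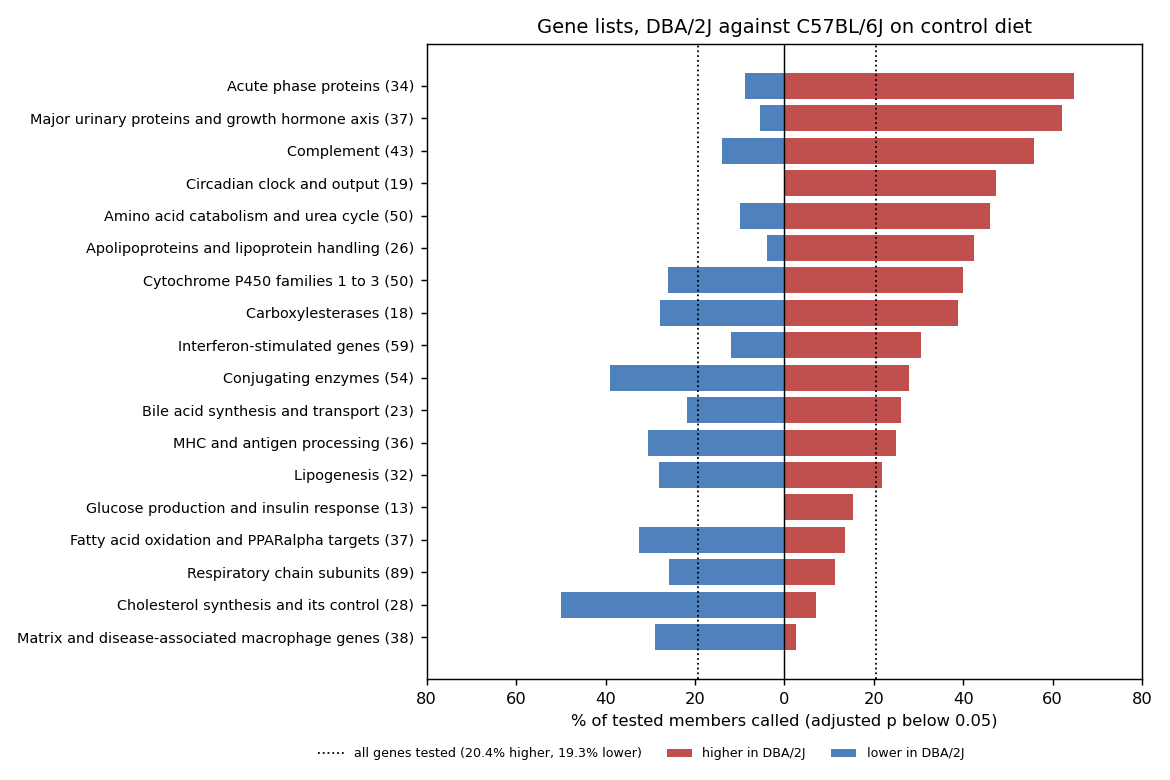
Share of the tested members of each gene list (number in parentheses) that were DEGs higher (right) or lower (left) in DBA/2J, with dotted lines at the shares over all genes tested (20.4% and 19.3%). Of 28 cholesterol genes 2 were higher and 14 lower, and of 34 acute phase genes 22 were higher and 3 lower.

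Among cholesterol synthesis genes more were lower than higher in DBA/2J. They are under the transcription factor SREBP-2, which is released from the endoplasmic reticulum by SCAP when sterols are low and held back by the INSIG proteins. Of 28 members 14 were lower and 2 higher, with a median log2 fold change of -0.49 against 0.00 over all genes, and of the 20 enzymes of the pathway 13 were lower and the other 7 did not pass the test. Hmgcs1, which makes HMG-CoA, was at 38.6 to 84.0 CPM, median 58.9, in DBA/2J and 127 to 438 CPM, median 265 in C57BL/6J (log2 fold change -2.10, SE 0.26, adjusted p = 1.3e-10), with no overlap. Cyp51, the lanosterol demethylase, was at 72.8 to 133 CPM, median 99.0, against 141 to 275 CPM, median 194 (log2 fold change -0.98, SE 0.21, adjusted p = 7.1e-05), also with no overlap. Idi1, which isomerises isopentenyl diphosphate, was at 10.2 to 30.5 CPM, median 20.3, against 29.0 to 68.1 CPM, median 46.5 (log2 fold change -1.25, SE 0.25, adjusted p = 1.9e-05). Sqle, squalene epoxidase, was lower (-0.75, adjusted p = 0.032) but not by edgeR or DESeq2, nor when C57BL/6J replicate 4, 6 or 8 or DBA/2J replicate 1, 2 or 4 was left out (-0.71 to -0.53). The members higher in DBA/2J act on the control of the pathway. Insig2 was at 324 to 549.9 CPM, median 460.0, against 172 to 496 CPM, median 278 (log2 fold change 0.66, SE 0.21, adjusted p = 0.0077). Scap was at 112 to 144 CPM, median 122, against 54.1 to 142 CPM, median 97.8 (log2 fold change 0.37, SE 0.11, adjusted p = 0.0039). With the cohort term 6 of the 28 members were lower and 1 higher, Idi1, Sqle and Insig2 being among those no longer called (adjusted p = 0.27, 0.40 and 0.23). Without both mice that stood apart 9 were lower and 1 higher, and Sqle (-0.51, adjusted p = 0.21) and Insig2 (0.54, adjusted p = 0.052) were not called.

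On WD the same list did not point the same way: 14 of the 28 members were higher and 2 lower, with a median of 0.39, against 24.6% of all genes higher and 22.6% lower on WD. The difference between the CD and the WD strain effects passed the test for 14 members, 12 of them enzymes, against 5.87% of all genes. For Hmgcs1 it was -1.50 (adjusted p = 0.0053), for Idi1 -1.79 (adjusted p = 0.0037) and for Cyp51 -1.02 (adjusted p = 0.018) (CD minus WD, log2 scale).

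**Figure D5:**
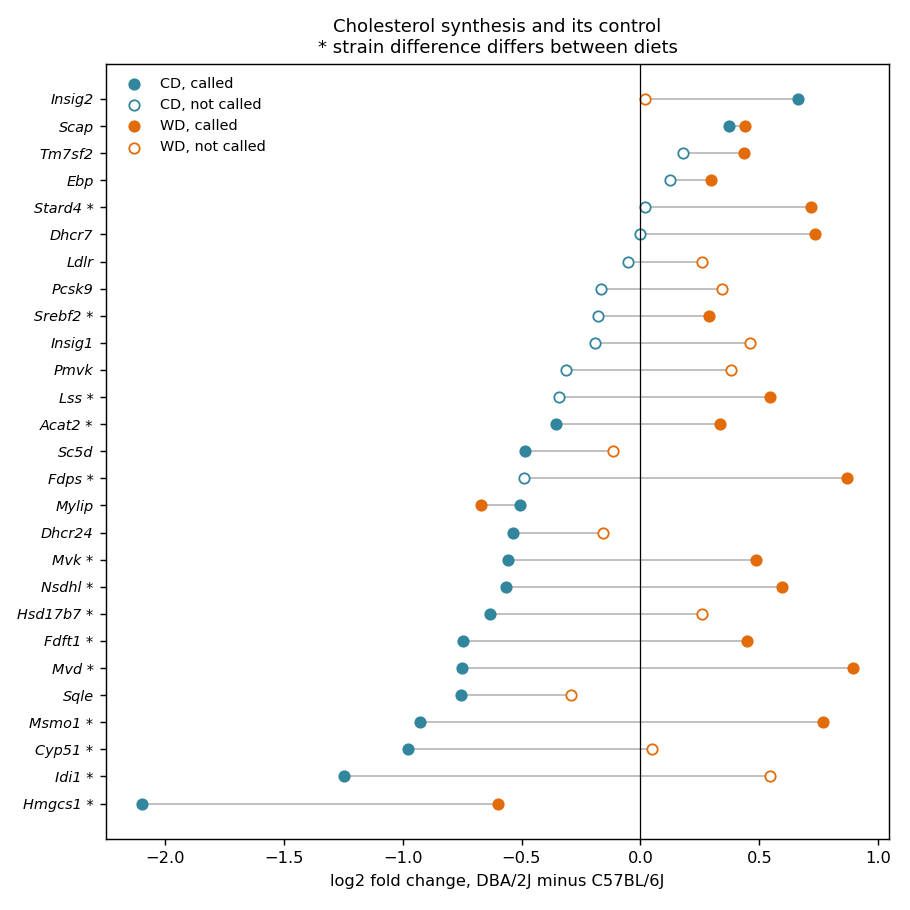
Log2 fold change of DBA/2J minus C57BL/6J on CD (6 and 8 mice) and on WD (7 and 8 mice) for 27 of the 28 cholesterol synthesis and control genes tested, filled where called and open where not, with an asterisk after genes whose difference changed between the diets. On CD 14 of these 27 genes were lower, and on WD 14 were higher.

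Promoters of 3 cholesterol genes are shown because these genes carried the largest differences among the called enzymes that were also tested between diets. They are the 250 bases before the start site, from RefSeq on GRCm38.p6, with capitals for CCAAT on either strand, the NF-Y box common beside sterol sites, and for TCACNCCAC on either strand, a sterol regulatory element. Hmgcs1 lies at chr13:119690101-119690350 on the plus strand, Idi1 at chr13:8885356-8885605 on the plus strand and Cyp51 at chr5:4104698-4104947 on the minus strand.
Hmgcs1: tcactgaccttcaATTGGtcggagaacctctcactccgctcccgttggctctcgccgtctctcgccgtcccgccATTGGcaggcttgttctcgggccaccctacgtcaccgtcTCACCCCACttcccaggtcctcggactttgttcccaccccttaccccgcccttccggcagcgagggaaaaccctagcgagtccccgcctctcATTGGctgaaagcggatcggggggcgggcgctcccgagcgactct
Idi1: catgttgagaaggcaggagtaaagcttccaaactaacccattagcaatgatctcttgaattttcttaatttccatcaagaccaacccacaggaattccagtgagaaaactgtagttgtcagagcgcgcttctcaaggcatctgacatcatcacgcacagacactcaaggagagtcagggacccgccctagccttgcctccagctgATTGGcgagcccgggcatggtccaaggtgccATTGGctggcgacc
Cyp51: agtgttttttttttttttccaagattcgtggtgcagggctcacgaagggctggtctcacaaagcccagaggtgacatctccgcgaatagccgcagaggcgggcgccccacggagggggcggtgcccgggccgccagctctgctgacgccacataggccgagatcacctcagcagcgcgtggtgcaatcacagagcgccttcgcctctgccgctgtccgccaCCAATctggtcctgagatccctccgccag
For 20 of the 28 genes 26 promoters were found. Of these 18 held CCAAT and 1 held TCACNCCAC, which the 250 bases before 33.8% and 1.05% of all 32851 promoters held. These are matches of letters in the reference strain and not measured binding.

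Of 32 lipogenic genes 7 were higher and 9 lower, against 20.4% and 19.3% of all genes, with a median of -0.24. With the cohort term 4 were higher and 9 lower. Of 4 regulators 3 were higher. Srebf1, which encodes SREBP-1, a driver of fatty acid synthesis after feeding, was at 206 to 557 CPM, median 316, against 98.1 to 375 CPM, median 153 (log2 fold change 0.88, SE 0.22, adjusted p = 0.00076). Mlxipl, the carbohydrate-sensing factor ChREBP, was at 477 to 614 CPM, median 517, against 135 to 449 CPM, median 317 (log2 fold change 0.83, SE 0.14, adjusted p = 1.4e-06). Mlxipl did not overlap between the strains. Thrsp, the lipogenic gene Spot 14, was higher (1.03, adjusted p = 0.033), but not with the cohort term (adjusted p = 0.41), nor when C57BL/6J replicate 2, 4 or 6 or DBA/2J replicate 5 or 6 was left out (0.63 to 0.98). Acaca, acetyl-CoA carboxylase, was lower, at 31.5 to 91.0 CPM, median 41.0, against 128 to 231 CPM, median 179.8 (log2 fold change -1.87, SE 0.23, adjusted p = 3.8e-11). Pparg, the adipogenic nuclear receptor, was at 0.862 to 1.95 CPM, median 1.41, against 5.46 to 16.4 CPM, median 10.5 (log2 fold change -2.88, SE 0.42, adjusted p = 2.3e-08). Neither overlapped. Cidec, the lipid droplet protein fat-specific protein 27, was at 2.20 to 8.40 CPM, median 2.70, against 6.03 to 68.8 CPM, median 13.4 (log2 fold change -2.04, SE 0.62, adjusted p = 0.0054). Fasn (-0.52, adjusted p = 0.17) and Scd1 (-0.24, adjusted p = 0.55), the synthase and the desaturase, did not pass, although Fasn was called without DBA/2J replicate 5 (-0.79, adjusted p = 0.034).

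Fatty acid oxidation and PPARalpha targets had 5 of 37 members higher, 12 lower and a median of -0.16. Without both mice that stood apart 22 were lower and 4 higher, and by edgeR 6 were lower. The Cyp4a omega-hydroxylases split. Cyp4a12a, a male-predominant form, was at 519.8 to 692 CPM, median 623, against 5.78 to 169.6 CPM, median 144 (log2 fold change 2.76, SE 0.35, adjusted p = 3.3e-10), without overlap, and Cyp4a12b (1.92) and Cyp4a32 (2.43) were also higher. Cyp4a14, a PPARalpha target, was at 4.31 to 1456 CPM, median 82.8, against 391 to 2354 CPM, median 1477 (log2 fold change -4.08, SE 0.87, adjusted p = 8.4e-05) but was not called by edgeR, and its mean in DBA/2J was 803 CPM in cohort 4 and 10.02 CPM in cohort 5. Cyp4a31 (-3.03, adjusted p = 4.8e-06) and the acyl-CoA thioesterase Acot3 (-2.69, adjusted p = 0.0045; not called by edgeR) were lower. Neither was called when DBA/2J cohort 4 alone was compared with 1 cohort of C57BL/6J. Cyp4a31 was then -0.82 (adjusted p = 0.33) for C57BL/6J cohort 1 and -1.17 (adjusted p = 0.096) for cohort 2. Acot3 was -0.52 (adjusted p = 0.72) and -1.26 (adjusted p = 0.25). Fgf21, a hepatic hormone of fasting, was at 7.78 to 27.6 CPM, median 18.1, against 13.9 to 64.4 CPM, median 51.1 (log2 fold change -1.41, SE 0.36, adjusted p = 0.0010), with overlap. Against DBA/2J cohort 4 alone Fgf21 was not called for C57BL/6J cohort 1 (-1.28, adjusted p = 0.051) or cohort 2 (-0.94, adjusted p = 0.14). Ppara was higher (0.58, adjusted p = 0.041), but not with the cohort term (adjusted p = 0.49), without both mice (0.21, adjusted p = 0.51), by edgeR or DESeq2, or when C57BL/6J replicate 2, 4 or 6 or DBA/2J replicate 1, 2, 3 or 6 was left out (0.31 to 0.60). Cpt1a, the entry step of mitochondrial oxidation, did not pass (-0.27, adjusted p = 0.25), although it was called as lower without C57BL/6J replicate 2 (-0.50, adjusted p = 0.0098) and without both mice (-0.57, adjusted p = 0.0046).

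Of 26 genes for apolipoproteins and lipoprotein handling 11 were higher and 1 lower (median 0.23). Lipc, hepatic lipase, was at 169 to 223 CPM, median 178, against 51.4 to 151 CPM, median 131 (log2 fold change 0.72, SE 0.12, adjusted p = 2.4e-07). Apoh, beta-2-glycoprotein I, was at 2479 to 2698 CPM, median 2577, against 1264 to 2156 CPM, median 1829.7 (log2 fold change 0.56, SE 0.069, adjusted p = 1.5e-10). Neither overlapped. Abca1, which loads cholesterol onto high-density lipoprotein, was higher (0.53, adjusted p = 6.7e-05). The member lower was Pltp, phospholipid transfer protein, at 18.9 to 26.7 CPM, median 24.3, against 20.1 to 146 CPM, median 55.1 (log2 fold change -1.36, SE 0.21, adjusted p = 1.5e-07), with an overlap that came from C57BL/6J replicate 2 (20.1 CPM).

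Bile acid genes, 23 tested of 24, had 6 members higher and 5 lower (median 0.09). Cyp7b1, the oxysterol hydroxylase of the alternative pathway, was at 257 to 471 CPM, median 325, against 9.01 to 133 CPM, median 103 (log2 fold change 2.31, SE 0.35, adjusted p = 4.8e-08). Cyp2c70, which makes muricholic acids, was at 871 to 1396 CPM, median 1065, against 289 to 461 CPM, median 364 (log2 fold change 1.61, SE 0.20, adjusted p = 9.1e-11). Neither overlapped. Cyp7a1, the rate-limiting enzyme of bile acid synthesis, was at 5.15 to 57.1 CPM, median 29.8, against 10.1 to 315 CPM, median 115 (log2 fold change -1.84, SE 0.54, adjusted p = 0.0040), but its mean differed between C57BL/6J cohorts (39.3 CPM in cohort 1 and 184 CPM in cohort 2) and it was not called with the cohort term (adjusted p = 0.062). Cyp8b1, which sets the share of cholic acid, did not pass (0.42, adjusted p = 0.23). Cyp39a1, the 24-hydroxycholesterol hydroxylase, is not a member of this list and not part of its counts. It was at 2.22 to 9.30 CPM, median 3.13, against 49.7 to 95.4 CPM, median 64.0 (log2 fold change -4.10, SE 0.41, adjusted p = 2.8e-14), with no overlap. Among transporters, the uptake carrier Slco1a1 was higher (1.43, adjusted p = 0.0032; without both mice 0.72, adjusted p = 0.021). Slco1a4, its relative, was lower, at 6.93 to 14.0 CPM, median 10.7, against 24.0 to 97.4 CPM, median 56.4 (log2 fold change -2.36, SE 0.31, adjusted p = 8.1e-10). The export pump Abcc4 was also lower (-1.66, adjusted p = 9.2e-08).

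Xenobiotic enzymes differed member by member. Of 50 Cyp genes of families 1 to 3 tested, 20 were higher and 13 lower (median 0.09). Cyp3a11, the main mouse counterpart of human CYP3A4, was at 501 to 1049.5 CPM, median 640.4, against 2179 to 5503 CPM, median 2816 (log2 fold change -2.18, SE 0.25, adjusted p = 5.2e-12), and the Cyp3a genes summed to 1804 ± 235 CPM in DBA/2J and 3972 ± 1232 CPM in C57BL/6J (SD, n = 6 and 8). Cyp2c38 was at 5.25 to 15.8 CPM, median 11.5, against 58.6 to 150.3 CPM, median 82.8 (log2 fold change -3.15, SE 0.38, adjusted p = 6.8e-11). The ranges of Cyp3a11 and Cyp2c38 were apart. Cyp2c39 (2.00) and Cyp2c40 (-2.63) were called in opposite directions, but neither with the cohort term (adjusted p = 0.39 and 0.060), and Cyp2c40 not without both mice (-2.14, adjusted p = 0.072). Of 8 Cyp2d genes tested 6 were higher, with Cyp2d12 the largest by log2 fold change (2.72, adjusted p = 1.5e-12). Cyp2g1 was also higher (3.93, adjusted p = 4.4e-08), at CPM below 3 in every mouse.

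Conjugating enzymes had 15 of 54 tested members higher and 21 lower (median -0.14), and of 20 glutathione S-transferases 4 were higher and 12 lower (median -0.53), and 5 and 7 with the cohort term. Gstm1, a mu-class transferase, was at 863 to 1305 CPM, median 1023, against 1862 to 4173 CPM, median 2618 (log2 fold change -1.39, SE 0.16, adjusted p = 3.7e-12). Gsta2, of the alpha class, was at 2.53 to 4.60 CPM, median 3.41, against 7.49 to 43.0 CPM, median 15.6 (log2 fold change -2.28, SE 0.40, adjusted p = 2.3e-06). Neither overlapped. Gsta1 had 2 reads in all in DBA/2J, a DBA/2J to C57BL/6J ratio of 0.00117 (95% counting interval 0.000141 to 0.00422), with 23.4 CPM in C57BL/6J replicate 2 and 0.506 to 13.0 CPM in the other 7. Nnmt, nicotinamide N-methyltransferase, was at 2.08 to 6.80 CPM, median 3.13, against 8.33 to 81.7 CPM, median 14.5 (log2 fold change -2.32, SE 0.59, adjusted p = 0.00085). Tpmt, the methyltransferase that inactivates thiopurine drugs, was higher, at 102 to 117 CPM, median 110.0, against 24.6 to 37.8 CPM, median 29.6 (log2 fold change 1.88, SE 0.12, adjusted p = 1.9e-23). Ugt1a9, a glucuronosyltransferase that overlaps the other Ugt1a genes, was at 108 to 151 CPM, median 135, against 15.4 to 43.2 CPM, median 18.5 (log2 fold change 2.63, SE 0.17, adjusted p = 9.4e-24). Both had ranges apart, and the sulfotransferase Sult5a1 was also higher (3.81, adjusted p = 6.1e-10).

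Carboxylesterases, which cleave ester drugs and neutral lipids, had 7 of 18 tested members higher and 5 lower (median 0.15). Ces1b was at 284 to 359 CPM, median 339, against 47.9 to 95.4 CPM, median 60.4 (log2 fold change 2.42, SE 0.11, adjusted p = 3.2e-35), with no overlap. Ces3b (1.59, adjusted p = 2.6e-05) and Ces4a (2.64, adjusted p = 2.0e-08) were higher, and Ces1d, also a triacylglycerol hydrolase, was lower (-0.65, adjusted p = 0.011). Ces2c was lower (-1.10), but not with the cohort term (adjusted p = 0.22), and Ces1a, under 1 CPM in every mouse, was lower (-1.45), but not without both mice (adjusted p = 0.32).

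Mup genes, which encode pheromone-binding lipocalins and depend on growth hormone in males, were higher in DBA/2J in 15 of 21 tested and lower in 1, with a median of 3.03. Their summed level did not show this: it was 10890.4 to 12382 CPM in DBA/2J (median 11971) and 262 to 15075 CPM in C57BL/6J (median 11519), so that the ranges overlapped even when replicate 2 was set aside. Mup9 was at 29.0 to 218 CPM, median 109, against 0 to 0.506 CPM, median 0.0790 (log2 fold change 10.08, SE 1.13, adjusted p = 2.9e-12). Mup17 was at 83.0 to 111 CPM, median 91.5, against 0.0168 to 2.08 CPM, median 0.473 (log2 fold change 8.23, SE 0.92, adjusted p = 2.0e-12). Mup7 was at 353 to 562 CPM, median 496, against 0 to 74.2 CPM, median 6.79 (log2 fold change 7.50, SE 1.12, adjusted p = 4.0e-08). Mup1, Mup2 and Mup12 had log2 fold changes of 7.39, 6.06 and 6.02, and none of these 6 genes overlapped between the strains. Mup20, the male pheromone darcin, was the member lower, at 1149 to 1562 CPM, median 1346, against 209 to 7154 CPM, median 5511 (log2 fold change -1.49, SE 0.39, adjusted p = 0.0012), and C57BL/6J replicate 2 held the lowest level. Without both mice that stood apart its log2 fold change was -2.11 (adjusted p = 8.3e-08), and with the cohort term it was not called (adjusted p = 0.078). Mup3 was higher (1.68, adjusted p = 0.0019; without both mice 0.87, adjusted p = 0.012), and took 72.9% of summed Mup CPM in DBA/2J against 47.9% in C57BL/6J. On WD, where 24.6% of all genes were higher and 22.6% lower, 9 Mup genes were higher and 7 lower.

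Of growth hormone axis genes outside the Mup cluster, 2 of 8 for receptors and signalling were higher, and of 8 targets 6 were higher and 1 lower. With the cohort term these were 1, and 4 and 1. Ghr, the growth hormone receptor, was at 519.6 to 594 CPM, median 563, against 269 to 503 CPM, median 408 (log2 fold change 0.57, SE 0.093, adjusted p = 3.7e-07), with no overlap. Igf1, the hormone it induces, was higher (0.44, adjusted p = 0.0015), and Igfbp2, which binds it, was lower (-0.53, adjusted p = 0.034). Neither was called with the cohort term (adjusted p = 0.28 and 0.96), nor was Igfbp2 without both mice (-0.55, adjusted p = 0.053), by edgeR, or when C57BL/6J replicate 6 or DBA/2J replicate 5 or 6 was left out (-0.46 to -0.38).

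Acute phase proteins, made by hepatocytes in inflammation, had 22 of 34 members higher and 3 lower (median 0.63), and 16 and 2 with the cohort term. Orm3, an orosomucoid, was at 8.57 to 25.6 CPM, median 12.6, against 0.178 to 1.13 CPM, median 0.255 (log2 fold change 5.33, SE 0.84, adjusted p = 1.4e-07). Hamp2, the companion of the iron hormone hepcidin, was at 103 to 212 CPM, median 147, against 2.12 to 30.4 CPM, median 10.3 (log2 fold change 3.97, SE 0.33, adjusted p = 5.2e-18), and neither range overlapped. Hamp, hepcidin itself, was at 151 to 313 CPM, median 229, against 259 to 1321 CPM, median 724 (log2 fold change -1.54, SE 0.44, adjusted p = 0.0033), but not with the cohort term (adjusted p = 0.11). Serpina3k, Serpina1b, Serpina1d, Serpina1e and Apcs, described above, belong to this list, whereas Serpina3c does not.

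Complement genes had 24 of 43 members higher and 6 lower (median 0.29), and 21 and 4 with the cohort term. C4a (chr17:34809092-34823464), the sex-limited protein Slp, was at 582 to 932 CPM, median 743, against 2.24 to 49.0 CPM, median 11.6 (log2 fold change 6.16, SE 0.34, adjusted p = 1.5e-28). C1s2 (chr6:124624625-124636085) and C1rb (chr6:124570294-124581171) are paralogs of the C1 protease genes. C1s2 was at 43.5 to 52.0 CPM, median 49.0, against 0.0393 to 0.138 CPM, median 0.0964 (log2 fold change 9.03, SE 0.24, adjusted p = 5.2e-50). C1rb was at 12.6 to 15.8 CPM, median 13.2, against 0.0412 to 0.110 CPM, median 0.0911 (log2 fold change 7.19, SE 0.35, adjusted p = 4.5e-32). All 3 stood apart between the strains. Cfhr2, a factor H relative, was lower, at 163 to 210.3 CPM, median 192, against 335 to 623 CPM, median 488 (log2 fold change -1.32, SE 0.081, adjusted p = 2.2e-25). Also lower were Hc, given above, and C7, of the membrane attack complex (-1.21, adjusted p = 0.00075).

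MHC and antigen processing genes had 9 of 36 tested members higher and 11 lower. H2-K1, the class I heavy chain present in both haplotypes, was at 296 to 415 CPM, median 330.4, against 569 to 1357 CPM, median 899 (log2 fold change -1.36, SE 0.11, adjusted p = 9.2e-19). H2-Q1, a class I gene of the Qa region, was at 6.32 to 8.46 CPM, median 7.01, against 13.9 to 36.7 CPM, median 25.3 (log2 fold change -1.74, SE 0.23, adjusted p = 1.8e-09). Both were lower without overlap, and reads of the d haplotype were aligned to the b haplotype reference. H2-T10 (1.45, adjusted p = 3.5e-12) and H2-T24 (1.42, adjusted p = 1.0e-15) were higher. H2-Eb2 had 1 read in DBA/2J, a ratio of 0.0183 (95% counting interval 0.000458 to 0.105), and H2-M2 was lower (-3.62, adjusted p = 0.00039), below 1 CPM in all mice but C57BL/6J replicate 2 and 1 other C57BL/6J mouse.

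Of 59 interferon-stimulated genes 18 were higher and 7 lower (median 0.16). With the cohort term these were 6 and 4, against 13.9% and 12.3% of all genes, and without both mice 14 and 4. Gbp11, a guanylate-binding protein, was at 19.9 to 73.4 CPM, median 36.0, against 2.97 to 11.7 CPM, median 5.93 (log2 fold change 2.78, SE 0.40, adjusted p = 1.7e-08), and its relative Gbp2b was also higher (2.25, adjusted p = 7.5e-06). The AIM2-like genes Ifi204 and Ifi205 were lower, opposite to Ifi202b of the same cluster. Ifi204 was at 3.24 to 4.71 CPM, median 4.17, against 10.6 to 20.9 CPM, median 13.9 (log2 fold change -1.85, SE 0.16, adjusted p = 1.0e-17). Ifi205 was at 0 to 0.135 CPM, median 0.0660, against 0.570 to 2.57 CPM, median 1.42 (log2 fold change -4.54, SE 0.51, adjusted p = 3.2e-12). On WD 6 members were higher and 25 lower, against 24.6% and 22.6% of all genes.

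Matrix and disease-associated macrophage genes had 1 of 38 members higher and 11 lower (median -0.48), 1 and 7 with the cohort term, 1 and 25 by edgeR and by DESeq2, and 2 and 7 without both mice. The member higher was Fn1, fibronectin, which hepatocytes also secrete, at 2067 to 2488 CPM, median 2294, against 1126 to 1699 CPM, median 1454 (log2 fold change 0.66, SE 0.095, adjusted p = 1.2e-08). Trem2, a receptor of lipid-associated macrophages, was at 0.110 to 0.369 CPM, median 0.254, against 0.495 to 15.3 CPM, median 0.967 (log2 fold change -2.64, SE 0.72, adjusted p = 0.0019; without both mice -1.92, adjusted p = 0.021). Mmp12, macrophage elastase, was at 0.310 to 0.718 CPM, median 0.554, against 0.763 to 68.2 CPM, median 1.51 (log2 fold change -2.71, SE 0.94, adjusted p = 0.016). Col1a1, fibrillar collagen I, was at 3.45 to 4.43 CPM, median 3.92, against 6.50 to 89.4 CPM, median 8.00 (log2 fold change -1.70, SE 0.55, adjusted p = 0.0088). C57BL/6J replicate 2 held the highest level of all 3 (15.3, 68.2 and 89.4 CPM). Without both mice Mmp12 (-2.06, adjusted p = 0.072) and Col1a1 (-1.32, adjusted p = 0.056) were not called, although the remaining C57BL/6J mice, at 0.763 to 21.0 CPM and 6.50 to 20.7 CPM, still lay above every DBA/2J mouse. With the cohort term neither was called (adjusted p = 0.0501 and 0.099). On WD 34 of the 38 members were lower and 1 higher, against 22.6% and 24.6% of all genes.

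Counts of cell type markers stand beside 20.4% of all genes higher and 19.3% lower, and several of these short lists were near those shares. Of 10 hepatocyte markers 4 were higher and the other 6 did not pass, and their sum was 121167 to 147763 CPM in DBA/2J and 120977 to 139258 CPM in C57BL/6J. Kupffer cell markers had 2 of 7 lower, monocyte-derived macrophage markers 4 of 7 lower (2 without both mice), and T cell markers 1 of 6 higher and 5 lower (2 lower with the cohort term). The summed T cell markers were low in both strains and not lower in DBA/2J, at 6.18 to 8.79 CPM, median 6.86, against 3.32 to 7.47 CPM, median 5.25. Natural killer markers had 3 of 6 lower, Klrd1 among them, and summed to only 0.640 to 1.88 CPM in DBA/2J and 1.96 to 6.44 CPM in C57BL/6J. B cell markers had 2 of 6 lower, but none by edgeR, with the cohort term or without both mice, and plasma cell markers had 2 of 6 higher, 1 with the cohort term and 1 without both mice. Of the acinar markers, high in DBA/2J replicate 2, 1 was higher by limma-voom (Cela1), 1 by DESeq2, 1 without both mice and 6 by edgeR. Their median log2 fold change was 3.04, and -2.66 with the cohort term. The part of cell composition in the other gene differences was not tested.

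Circadian genes were higher in 9 of 19 (median 0.47), 4 with the cohort term and 6 by edgeR. Per2, a core repressor of the clock, was at 18.1 to 30.7 CPM, median 25.2, against 7.17 to 24.0 CPM, median 9.44 (log2 fold change 1.15, SE 0.23, adjusted p = 2.7e-05). Per3, its relative, was at 14.1 to 33.1 CPM, median 24.0, against 2.31 to 48.5 CPM, median 10.8 (log2 fold change 1.37, SE 0.34, adjusted p = 0.00068). Dbp, a clock output factor, was at 24.7 to 71.9 CPM, median 51.0, against 0.823 to 104 CPM, median 27.7 (log2 fold change 1.60, SE 0.44, adjusted p = 0.0020). The ranges of all 3 overlapped. The C57BL/6J cohorts differed from each other. Mean Dbp was 3.72 CPM in cohort 1 and 54.8 CPM in cohort 2, and mean Per3 was 2.70 and 23.5 CPM. Mean Arntl, the clock activator BMAL1, was 28.9 and 5.95 CPM (adjusted p of the cohort difference = 7.4e-06 for Dbp, 0.0014 for Per3 and 2.0e-05 for Arntl). In DBA/2J mean Dbp was 57.9 CPM in cohort 4 and 43.6 CPM in cohort 5. Per3 was not called with the cohort term (adjusted p = 0.064), Dbp not without both mice (adjusted p = 0.062), and neither by edgeR or DESeq2. Arntl (0.37, adjusted p = 0.44) and Nr1d1, the repressor REV-ERBalpha (0.41, adjusted p = 0.40), did not pass. The promoter of Per3, at chr4:151044666-151044915 on the minus strand (RefSeq, GRCm38.p6), is shown for its copies of TTANGTAA, the D-box that DBP binds, in capitals. On either strand, 2.06% of all promoters of this length held the motif. Of the 21 promoters found for 16 of the 19 circadian genes, 1 held it, that of Per3. The E-box CACGTG was in 6 of these 21 promoters and in 6.02% of all. These are matches of letters in the reference strain and not measured binding.
Per3: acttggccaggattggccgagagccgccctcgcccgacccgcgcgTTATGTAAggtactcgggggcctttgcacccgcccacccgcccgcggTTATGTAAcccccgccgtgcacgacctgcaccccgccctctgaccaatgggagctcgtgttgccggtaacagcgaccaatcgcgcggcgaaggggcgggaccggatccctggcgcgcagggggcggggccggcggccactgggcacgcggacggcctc

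Glucose production and insulin response genes had 2 of 13 members higher, Foxo1, the gluconeogenic factor (0.50, adjusted p = 0.0032), and Pcx, pyruvate carboxylase (0.28, adjusted p = 0.0077; 0.20 and adjusted p = 0.058 without C57BL/6J replicate 2). Neither was called with the cohort term (adjusted p = 0.51 and 0.27) or without both mice (0.33, adjusted p = 0.074, and 0.16, adjusted p = 0.15). Without both mice 2 other members were lower, Gys2, glycogen synthase (-0.47, adjusted p = 0.016), and Irs2, an insulin receptor substrate (-0.56, adjusted p = 0.046), both picked out after their values were seen. Amino acid catabolism and urea cycle genes had 23 of 50 higher and 5 lower (median 0.20), and 12 and 4 with the cohort term. Bhmt, which remethylates homocysteine with betaine, was at 1223 to 1976 CPM, median 1604, against 167 to 973 CPM, median 514 (log2 fold change 1.68, SE 0.27, adjusted p = 1.8e-07). Dmgdh, of the next step of choline breakdown, was at 381 to 479 CPM, median 414, against 180.2 to 322 CPM, median 224 (log2 fold change 0.90, SE 0.13, adjusted p = 1.9e-08). Both stood apart, as did Haao, of tryptophan breakdown (0.92, adjusted p = 1.5e-07). Oat, ornithine aminotransferase, was lower, at 139 to 366 CPM, median 239, against 262 to 781 CPM, median 417 (log2 fold change -0.82, SE 0.19, adjusted p = 0.00037). Also lower were Amdhd1, of histidine breakdown (-0.58, adjusted p = 1.9e-05), and the folate enzyme Mthfd1l (-0.98, adjusted p = 0.021; 0.17 with the cohort term, 0.088 without both mice, 0.054 without C57BL/6J replicate 4 and 0.051 without DBA/2J replicate 6).

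Respiratory chain subunits had 10 of 89 members higher and 23 lower (median -0.01), 14 and 8 with the cohort term. Cox7a2l, the supercomplex factor SCAF1, of which C57BL/6J carries a short form, was at 31.3 to 41.8 CPM, median 34.5, against 59.3 to 86.6 CPM, median 73.6 (log2 fold change -1.05, SE 0.059, adjusted p = 6.4e-28), with no overlap. Sdhb, of complex II, was at 187 to 213 CPM, median 200.3, against 112 to 165 CPM, median 127 (log2 fold change 0.57, SE 0.070, adjusted p = 8.9e-11), also apart. Ndufa12 of complex I was higher (0.34, adjusted p = 2.4e-05). Of the 13 genes of mitochondrial DNA 9 were lower and the other 4 did not pass (median -0.34), with 6 lower with the cohort term and 5 without both mice. The farthest was mt-Nd3 (-0.95, adjusted p = 0.00042), and Cox7a1 was lower (-0.76), but not with the cohort term (adjusted p = 0.076).

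On WD 9026 genes differed between the strains (47.2%), 4703 higher and 4323 lower in DBA/2J. Of the 7584 DEGs on CD, 5368 were called in the same direction on WD (70.8% of the CD and 59.5% of the WD DEGs), 74 in the opposite direction, and 2142 not called. Across the 19110 genes the log2 fold changes on both diets had a Pearson r of 0.85 and a Spearman rho of 0.72. No mice were shared, but the cohorts were the same on both diets and genes are not independent. The difference between the strain effects passed the test for 1121 genes (5.87%), 597 more positive on CD (3.12%) and 524 more negative (2.74%). Cyp3a11 was 1 of them, with a log2 fold change of -2.18 on CD and -0.63 (adjusted p = 0.030) on WD.

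DEGs of at least 2-fold were spread over the genome. Divided into 353 windows of 5 Mb with at least 20 genes tested, the median share was 12.1%, 7 windows had 0 and 16 had 30% or more, by limma-voom. The highest share, 56.5% (39 of 69 genes, 33 of them higher), was on chromosome 4 between 60 and 65 Mb (GRCm38), which holds the Mup cluster and Orm3. The window on chromosome 12 between 100 and 105 Mb, with the Serpina cluster, had 36.5% (27 of 74, 21 higher). At the extreme, 19 genes were at 1 CPM or more in every DBA/2J mouse and at 0.1 CPM or less in every C57BL/6J mouse, 9 of them protein-coding, and 15 showed the converse, 8 protein-coding. Ifi202b and H2-Ea-ps were among the 19. Seen after their values were known, the others included Mup10, Serpina3a and Erp27, and those detected in C57BL/6J included Ifi213, Trim12a, Cebpe, a granulocyte transcription factor, and Hba-a2, an alpha-globin gene.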

How the data were processed

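Liver RNA of 93 male mice of 7 inbred strains on CD or WD was sequenced, and the deposited table held raw read counts for 53465 Ensembl gene IDs. Per the labels and the authors' methods, libraries were made with a SMARTER kit, sequenced on a BGISEQ-500 and aligned to the C57BL/6J genome with STAR 2.7.1a (GRCm38/mm10), and the counts were not normalized. The annotation release and the strandedness of counting were not given in the sources used here, so overlapping and antisense genes cannot be told apart. Unmapped, multimapped, ambiguous and unassigned reads were kept out of library sizes and tests and are reported as shares of all reads. Symbols and positions came from GENCODE M21 (53360 IDs matched). Promoter sequences came from RefSeq (GRCm38.p6).

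Counts were filtered with filterByExpr (minimum count 10), scaled by TMM and fitted with limma-voom (limma 3.58.1, edgeR 4.0.16, R 4.3.3) on all 93 mice with 1 mean per strain and diet, so that the groups shared 1 estimate of spread. The contrast was DBA/2J minus C57BL/6J on CD, with the WD contrast and their difference from the same fit. A gene was called at an adjusted p (Benjamini-Hochberg over 19110 genes) below 0.05. CPM used TMM library sizes. The model scripts were tested on simulated data. Values belong to single livers. The p-values weigh a difference against the spread between mice within groups, estimated over all 93 mice and not only the 14 compared. When only those 14 were fitted, 4851 of 15983 genes were called. The number of reads limits only low genes, and counting intervals cover counting error only. Groups followed the strain and diet labels.

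The comparison, the gene lists and the alternatives were chosen with earlier results of these data known. Named were the 10 largest and 10 smallest log2 fold changes among protein-coding DEGs with a named symbol whose strains did not overlap and whose mean over the 14 mice reached 1 on the log2 CPM scale, the 4 largest gains and 4 largest losses in CPM, up to 3 called members per list and direction, known allele genes, and a set of well-known liver genes. Some genes that these rules name are not reported here. Alternatives were edgeR's quasi-likelihood test, DESeq2 1.42.0, upper-quartile scaling, other filters and sets of mice, cohort or RNA integrity (RIN) as a covariate, sample quality weights and leaving out each mouse. Leaving out both mice that stood apart was chosen after seeing the data.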

Additional observations from a re-analysis of the deposited data

Results flagged for a closer look

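Among the 133 genes described, 31 of 266 groups of CD values had a mouse far from the others of its strain (Dixon's ratio of the gap to the range, about 1 in 20 by chance), 24 in C57BL/6J and 7 in DBA/2J. Replicate 2 of C57BL/6J accounted for 16. It was the highest for Gpnmb (178 against 7.88 CPM), Apcs (209 against 119 CPM), Klrd1 (2.49 against 1.22 CPM), Abcc4 (17.1 against 9.25 CPM), Cyp2c40 (21.9 against 6.54 CPM), Nnmt (81.7 against 29.8 CPM), Ces1a (0.706 against 0.328 CPM), Orm3 (1.13 against 0.536 CPM), C7 (3.95 against 2.11 CPM), H2-Eb2 (0.538 against 0.239 CPM), H2-M2 (5.11 against 1.08 CPM), Mmp12 (68.2 against 21.0 CPM), Trem2 (15.3 against 2.89 CPM), and Col1a1 (89.4 against 20.7 CPM). The second value is that of the next mouse of its strain. It was the lowest for Mup20 (209 against 4154 CPM) and Nr1d1 (8.50 against 88.2 CPM). The other 8 C57BL/6J values were Ifi202b in replicate 6 (highest, 0.0730 against 0.0211 CPM), Mup17 in replicate 3 (highest, 2.08 against 0.844 CPM), Cidec in replicate 4 (highest, 68.8 against 24.1 CPM), Fgf21 in replicate 7 (lowest, 13.9 against 45.2 CPM), Cyp2c38 in replicate 6 (highest, 150.3 against 100.2 CPM), H2-T10 in replicate 1 (highest, 6.95 against 4.37 CPM), H2-K1 in replicate 1 (highest, 1357 against 936 CPM), and Gbp2b in replicate 1 (highest, 14.1 against 5.43 CPM). The 7 DBA/2J values were Obp2a in replicate 2 (highest, 281 against 158 CPM), Lipc in replicate 1 (highest, 223 against 182 CPM), Cyp2c40 in replicate 3 (highest, 1.81 against 0.448 CPM), Gsta1 in replicate 1 (highest, 0.0448 against 0 CPM), H2-Eb2 in replicate 5 (highest, 0.0224 against 0 CPM), H2-Q1 in replicate 5 (highest, 8.46 against 7.08 CPM), and Arntl in replicate 1 (highest, 34.6 against 16.0 CPM). For Gsta1 and H2-Eb2 in DBA/2J the value stands for 1 or 2 reads.

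For 19 of the genes the strain difference changed between the diets (limma-voom, adjusted p below 0.05 over all genes for the difference itself; CD minus WD, log2 scale, 6 and 8 mice on CD, 7 and 8 on WD). It was more positive on CD for Mup17 6.72, Mup7 4.64, Mup1 3.15, Mup2 2.31, Mup12 2.52, Serpina1b 0.48, Orm3 4.16, and C4a 2.56. It was more negative on CD for Ildr2 -2.61, Ccnd1 -1.60, Cyp3a11 -1.55, Hmgcs1 -1.50, Idi1 -1.79, Cyp51 -1.02, Pparg -2.19, Cyp7a1 -2.75, Cyp2c38 -2.69, Ugt1a9 -1.28, and Alb -0.55. Cyp2c38 was -3.15 on CD and -0.45 on WD, Pparg -2.88 and -0.70, and Orm3 5.33 and 1.18. C57BL/6J replicate 2, which had the lowest Mup levels, was part of the CD contrast.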

How the results depend on the processing

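The count of 7584 genes called on CD was within 1.5 times under edgeR (7862), DESeq2 (7999), upper-quartile scaling (7640), RIN as a covariate (7586), sample quality weights (6849), only mice on CD (6699) and no filter beyond any count (10053 of 41553 genes tested). It ran from 6960 to 7681 when each mouse was left out in turn, and was 6517 without both mice that stood apart. It was 5000 with cohort as an additive term and 4851 when only the 14 mice compared were fitted, a fit with fewer mice and 15983 genes. The count with at least a 2-fold difference (2592) ran from 2370 to 2684 without each mouse, was 1693 with only the 14 mice and 1007 of 13637 genes tested when at least 10 counts were required in each of the 14 mice, a filter that removes genes absent in either strain. The share of calls that were higher in DBA/2J was 51.3% in the direct comparison, 41.6% under upper-quartile scaling, where the median over all genes moved to -0.058, and 62.0% with no filter. In the 4 pairs of 1 cohort per strain 5236 to 5494 genes were called, and 2532 of the DEGs (33.4%) were called in the same direction in all 4 pairs. The C57BL/6J cohorts differed in 1219 genes by edgeR against 756 by limma-voom, and the cause was not tested.

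Of the 133 genes described, 20 of the 126 called lost the call with the cohort term, and 0 changed sign with it. The call was lost for 12 without both mice, 7 by edgeR and 4 by DESeq2. When only the 14 mice compared were fitted, 17 lost the call. Cyp2a4, Scap, Slco1a1, Ces3b, Mup3 and Dbp were among these 17 (limma-voom, adjusted p = 0.11, 0.13, 0.21, 0.069, 0.20 and 0.17). Signs turned only in pairs of single cohorts: Thrsp was -0.31 for cohorts 2 and 4, Cpt1a 0.75 and Arntl -1.10 for cohorts 1 and 4, Arntl -1.19 and Cyp7a1 0.56 for cohorts 1 and 5, and Ppara -0.028 and Dbp -0.21 for cohorts 2 and 5 (log2 fold change). Per read on genes, the share of reads outside genes was 0.891 percentage points higher in DBA/2J (adjusted p = 0.00355, exact permutation test) and that of ambiguous reads 0.400 points higher (adjusted p = 0.0306), against 0.344 (adjusted p = 0.0702) and -0.0448 (adjusted p = 0.768) per read counted. No paired analysis was possible because the labels carry no replicate numbers and the strains share no cohort. Depth limited genes of few reads, such as Gsta1, H2-Eb2 and H2-Ea-ps, whose ratios rest on 1 to 3 reads in 1 strain.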

Other observations

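The counts that follow stand beside 20.4% of all genes higher and 19.3% lower, or 13.9% and 12.3% with the cohort term. Antigen processing genes outside the MHC heavy chains, 8 in number, had 4 members higher in DBA/2J, class I genes 4 of 16 higher and 7 lower, and class II genes 1 of 12 higher and 4 lower (2 lower with the cohort term). Within complement, 9 of 13 regulators were higher and 2 lower. Of the nuclear-encoded respiratory chain subunits, complex IV had 5 of 12 lower, and with the cohort term 1 higher and 1 lower. Complex III had 2 of 9 higher, near the share over all genes. Complex I had 5 of 36 higher and 7 lower, complex II 2 of 4 higher and 1 lower, and complex V 1 of 15 higher and 1 lower. Of the remaining marker lists, stellate cells had 3 of 7 higher and 1 lower, cholangiocytes 1 of 6 higher and 3 lower, erythroid cells 1 of 6 higher and 2 lower, sinusoidal endothelial cells 1 of 7 lower (3 without both mice) and neutrophils 1 of 6 lower, a call lost with the cohort term and without both mice. Of 4 adipocyte markers 1 was higher, Car3, and by edgeR 3 were lower.

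By level, the 4778 genes with the lowest mean log2 CPM were called in 28.1% and differed by at least 2-fold in 24.5%, and the 4778 with the highest in 45.1% and 3.75%. Protein-coding genes were called in 41.9% and differed at least 2-fold in 11.4%, against 34.0% and 23.6% of lincRNAs and 43.4% and 38.4% of unprocessed pseudogenes. Values of pseudogenes depend on how reads of their parent genes were assigned.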
